A study of Mus musculus with 3 samples.

Results

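Endocannabinoids are lipids that neurons make on demand and that act back on the terminals contacting them. 2-Arachidonoylglycerol (2-AG) is made from diacylglycerol by the lipases of Dagla and Daglb and broken down by the hydrolases of Mgll, Abhd6 and Abhd12. Anandamide, an N-acylethanolamine, can be released by the phospholipase of Napepld and is hydrolysed by the amidase of Faah. Both lipids bind the receptors encoded by Cnr1 (CB1), which is abundant on axon terminals in the hippocampus, and Cnr2 (CB2), best known from immune cells.

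These 9 genes were taken by symbol from a table of 33101 gene names with a value, and all 9 were found, each on a row of its own. The table describes micro-dissected dentate gyrus, the hippocampal subregion of the granule cells, of wild-type (WT) male C57Black6 mice at 8 to 10 weeks of age. Poly(A) RNA of 3 libraries labelled as replicates was sequenced, and there was no treatment and no second group. Each gene has 1 deposited value in FPKM, a unit that divides fragments by transcript length and by library size, so genes can be set beside each other per length. No spread between libraries can be attached to any value, no test was possible, the depth is unknown, and every comparison below is a description. Transcript levels alone were measured, not enzyme activity, receptor protein or the lipids.

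All 5 granule cell genes were present, between 43.3 and 111 FPKM, but with no other region measured these levels do not check the tissue label. Genes of other cells were present as well. All 5 astrocyte genes lay between 37.9 and 511 FPKM, and their median of 192 FPKM was above the granule cell median of 77.4 FPKM. All 5 microglia genes lay between 10.3 and 38.9 FPKM and all 4 oligodendrocyte genes between 6.72 and 261 FPKM. Of 3 endothelial genes, Cldn5 was at 7.96 FPKM, Flt1 was at 2.02 FPKM and Pecam1 was listed at 0. Of 3 choroid plexus genes, Kl was at 6.06 FPKM, Ttr was at 2.13 FPKM and Folr1 was listed at 0. In such bulk tissue, fewer cells of a type and less RNA per cell cannot be told apart, and which cells carried each of the 9 transcripts was not tested.

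The upstream sequences of 4 of the genes are shown first, because the 2 receptor genes differ widely in level and in CpG content, and Mgll and Faah are the classical hydrolases of 2-AG and anandamide. Each is the 250 bases before the most upstream start in the RefSeq table (GRCm38.p6), read 5′ to 3′ on the gene's strand, with every CpG dinucleotide in capitals. The windows are chr4:33924014-33924263 (plus strand) for Cnr1, chr4:135894939-135895188 (plus strand) for Cnr2, chr6:88724162-88724411 (plus strand) for Mgll and chr4:116017925-116018174 (minus strand) for Faah.
Cnr1: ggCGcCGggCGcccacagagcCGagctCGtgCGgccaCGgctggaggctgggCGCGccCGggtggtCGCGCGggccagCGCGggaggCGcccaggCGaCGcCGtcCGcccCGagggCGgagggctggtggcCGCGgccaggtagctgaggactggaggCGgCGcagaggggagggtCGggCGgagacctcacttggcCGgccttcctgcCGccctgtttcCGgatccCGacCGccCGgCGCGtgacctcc
Cnr2: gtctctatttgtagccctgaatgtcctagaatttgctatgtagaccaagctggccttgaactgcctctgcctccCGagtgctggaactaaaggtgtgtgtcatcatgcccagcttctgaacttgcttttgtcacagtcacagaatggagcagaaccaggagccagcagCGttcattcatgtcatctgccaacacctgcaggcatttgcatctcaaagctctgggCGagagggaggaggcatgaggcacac
Mgll: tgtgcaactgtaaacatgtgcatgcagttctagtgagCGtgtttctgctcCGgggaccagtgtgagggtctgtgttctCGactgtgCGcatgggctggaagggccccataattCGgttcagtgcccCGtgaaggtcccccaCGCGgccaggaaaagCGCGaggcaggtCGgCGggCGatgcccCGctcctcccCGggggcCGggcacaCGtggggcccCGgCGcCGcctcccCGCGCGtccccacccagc
Faah: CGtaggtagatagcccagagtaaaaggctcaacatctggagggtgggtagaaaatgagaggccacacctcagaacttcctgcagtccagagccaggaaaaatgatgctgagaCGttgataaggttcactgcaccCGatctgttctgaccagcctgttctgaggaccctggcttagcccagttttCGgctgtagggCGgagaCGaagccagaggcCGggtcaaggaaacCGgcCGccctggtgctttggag

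Of the 9 genes, 8 were at 1 FPKM or more, against 39.6% of all names and 56.4% of protein-coding names. The same 8 were at 10 FPKM or more, a level reached by 21.1% of all names and 30.8% of protein-coding names. Abhd12, Mgll and Faah, 3 of the hydrolase genes, passed 50 FPKM, against 4.87% of all names and 6.58% of protein-coding names. The hydrolase gene Abhd6, at 23.8 FPKM, did not. The set's median was 23.8 FPKM, and that of protein-coding names was 2.46 FPKM, or 11.5 FPKM over the 11356 of them at 1 FPKM or more. Ordered from high to low, the genes ran Abhd12, Mgll, Faah, Dagla, Abhd6, Napepld, Cnr1, Daglb and Cnr2. With no replicate error, it is not known which neighbours in this order differ.

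**Figure D1:**
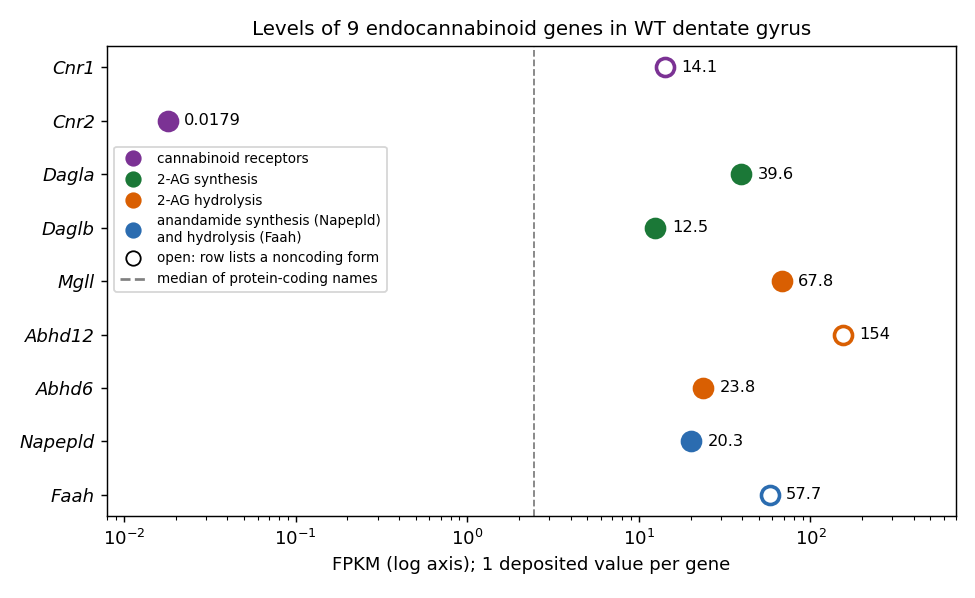
Deposited FPKM of the 9 endocannabinoid genes (log axis, 1 value per gene, no error available), coloured by role. Open circles mark Cnr1, Abhd12 and Faah, whose rows list a noncoding transcript form, and the dashed line is the median of protein-coding names at 2.46 FPKM. The 7 enzyme genes lie between 12.5 and 154 FPKM, and Cnr2 stands apart at 0.0179 FPKM.

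The 2 receptor genes lay far apart. Cnr1, whose product inhibits transmitter release through Gi and Go proteins, was at 14.1 FPKM, higher than 75.7% of protein-coding names. Cnr2 was at 0.0179 FPKM, higher than 27.4% of them. The ratio of Cnr1 to Cnr2 was 789 and their difference was 6.92 on the log2(FPKM + 0.1) scale. The log2 difference was 3.90 with 1 FPKM added and 8.99 with 0.01 FPKM added. All 5 microglia markers were present, from Tmem119 at 10.3 FPKM to Csf1r at 34.1 FPKM and the complement gene C1qb at 38.9 FPKM. What underlies the low value of Cnr2 was not tested.

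Of the 9 genes, only Daglb and Cnr2 were lower than Cnr1. It was at 0.357 times Dagla, 0.245 times Faah and 0.209 times Mgll. In the hippocampus CB1 is best known from cholecystokinin interneurons, and terminals of hilar mossy cells carry it too. The cholecystokinin gene Cck was at 230 FPKM, so that Cnr1 was at 0.0616 times Cck, but Cck is also transcribed outside interneurons. The list of 7 drawn up for that interneuron class also held Gad1 at 87.1 FPKM and Gad2 at 10.6 FPKM. Neither Gad gene is particular to that class. The remaining genes, Vip, Htr3a, Sncg and Slc17a8, lay between 0.249 and 2.41 FPKM. Among 4 mossy cell markers, Calb2 was at 53.0 FPKM, Ajap1 at 9.38 FPKM, Calcrl at 2.60 FPKM and Drd2 at 0.173 FPKM. Whether Calb2 is particular to mossy cells in this tissue was not tested. Of 3 markers of parvalbumin and somatostatin interneurons, Sst was at 109 FPKM, Pvalb at 10.7 FPKM and Lhx6 at 0.444 FPKM.

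In the authors' mm9 coordinates the row of Cnr1 (ENSMUSG00000044288) spans 34011568 to 34022291 on chromosome 4, plus strand. It lists a processed transcript of 757 nt in 3 exons with no coding sequence, whereas the longest coding form in GENCODE M21 has 5807 nt in 2 exons, of which 1419 nt are coding. No source used here says if the deposited value is that of the gene or of the listed form, so the place of Cnr1 in the order carries this limit. Cnr2 (ENSMUSG00000062585; 135451309 to 135476122 on chromosome 4, plus strand) is listed with its coding form of 3867 nt. Its nearest neighbour with a value of 1 FPKM or more, Fuca1, begins 527 bases further along the same strand and was at 12.4 FPKM.

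For 2-AG synthesis, Dagla exceeded Daglb. Dagla, whose lipase makes the 2-AG that acts across adult synapses, was at 39.6 FPKM and above 91.2% of protein-coding names. Daglb, whose lipase is best known for its role in microglia and macrophages, was at 12.5 FPKM and above 73.4% of them. The ratio of Dagla to Daglb was 3.17, and Dagla held 76.0% of their sum of 52.1 FPKM. Dagla (ENSMUSG00000035735; 10319755 to 10379367 on chromosome 19, minus strand) is listed with its coding form of 20 exons and 5634 nt. Daglb (ENSMUSG00000039206; 144225361 to 144265282 on chromosome 5, plus strand) is listed with a coding form of 15 exons and 4651 nt.

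Daglb lies tail to tail with Rac1, a small GTPase gene on the opposite strand that was at 141 FPKM. Their rows are 1063 bases apart in mm9, but in GENCODE M21 their exons share 2309 bases. The library protocol describes no step that keeps the strand, so strand may not tell apart reads from the shared bases. Since the rows do not overlap in mm9, whether such reads entered the value of Daglb is unknown and was not tested.

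For 2-AG breakdown, the 3 hydrolase genes together reached 246 FPKM, 4.73 times the sum of the lipase genes. Abhd12, whose product is an integral membrane hydrolase also known for clearing lysophosphatidylserine, was highest of all 9 genes at 154 FPKM and above 98.5% of protein-coding names. Mgll, which encodes monoacylglycerol lipase, the main 2-AG hydrolase of the brain and an enzyme of axon terminals and astrocytes, was at 67.8 FPKM and above 95.6% of them. Abhd6, whose product sits in the membrane of postsynaptic neurons, was at 23.8 FPKM and above 84.2%.

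Abhd12 held 62.8% of the hydrolase sum, Mgll 27.6% and Abhd6 9.66%. The ratio of Mgll to Abhd6 was 2.85, that of Mgll to Abhd12 was 0.439 and that of Abhd12 to Abhd6 was 6.50. These shares rest on Abhd12: without it the hydrolase sum was 91.6 FPKM, the ratio to the lipase sum was 1.76 and Mgll held 74.0%. Set against each other, the synaptic synthesis gene Dagla was at 0.584 times the breakdown gene Mgll.

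The row of Abhd12 (ENSMUSG00000032046; 150658229 to 150668306 on chromosome 2, minus strand) lists a processed transcript of 1292 nt in 9 exons, against 1999 nt in 13 exons for the coding form. It ends 734 bases from the end of Pygb, the glycogen phosphorylase gene on the opposite strand, which was at 87.8 FPKM. No exon of another gene overlapped those of Abhd12 in GENCODE M21. Mgll (ENSMUSG00000033174; 88674406 to 88778354 on chromosome 6, plus strand) has 10 annotated forms, 6 of them coding, and its row lists a coding form of 3676 nt. The antisense gene Gm26588 shares 167 exonic bases with Mgll. Abhd6 (ENSMUSG00000025277; 8835416 to 8889069 on chromosome 14, plus strand) is listed with a coding form of 2226 nt.

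For anandamide, Faah exceeded Napepld, the only gene of its synthesis among the 9. Faah, whose membrane amidase hydrolyses anandamide, mainly in cell bodies and dendrites of principal neurons, was at 57.7 FPKM and above 94.5% of protein-coding names. Napepld, which encodes the phospholipase D that releases N-acylethanolamines, was at 20.3 FPKM and above 81.7%. The ratio of Faah to Napepld was 2.85. The row of Faah lists a noncoding form, so this order carries the limit given for Cnr1. Among other genes linked to N-acylethanolamine synthesis, Gde1 was above Faah at 110 FPKM, and the rest were below Faah. Mgll and Faah, the hydrolases of 2-AG and anandamide, had a ratio of 1.17, and the synthesis genes Dagla and Napepld had a ratio of 1.95.

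Faah (ENSMUSG00000034171; 115639750 to 115690280 on chromosome 4, minus strand) is listed with a retained-intron form of 2758 nt, against 3827 nt for its coding form. Napepld (ENSMUSG00000044968; 21168719 to 21207212 on chromosome 5, minus strand) is listed with a coding form of 3954 nt. The row of Gm15719, 635 bases on the opposite strand at 0.764 FPKM, lies within that span.

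**Figure D2:**
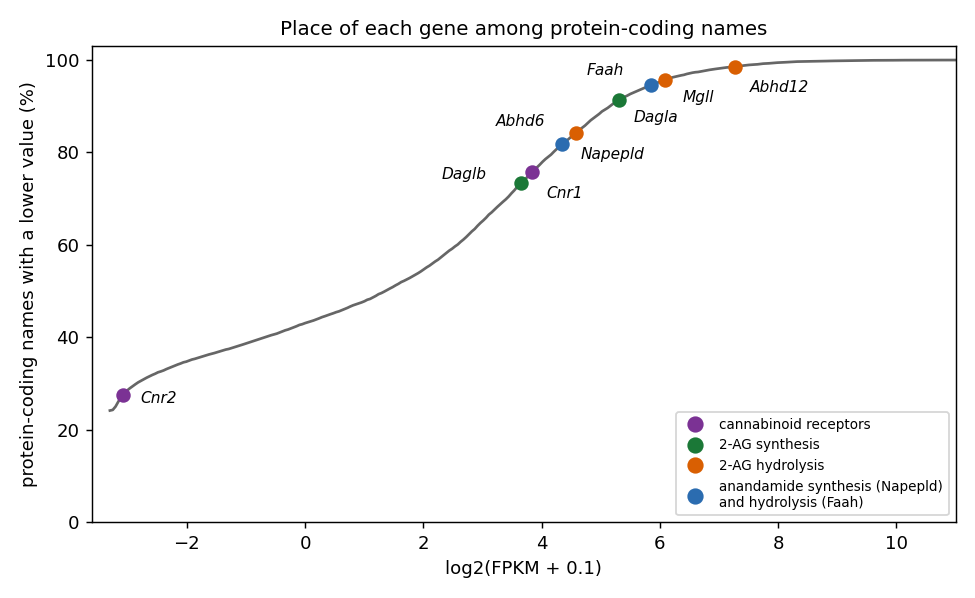
Place of each of the 9 genes among 20135 protein-coding names: the curve gives the percent of names with a lower value (vertical axis) at each log2(FPKM + 0.1) (horizontal axis), and coloured points are the genes by role. Abhd12, Mgll, Faah and Dagla lie above 91.2% of names, and Cnr2 lies at 27.4%, near the start of the curve.

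**Figure D3:**
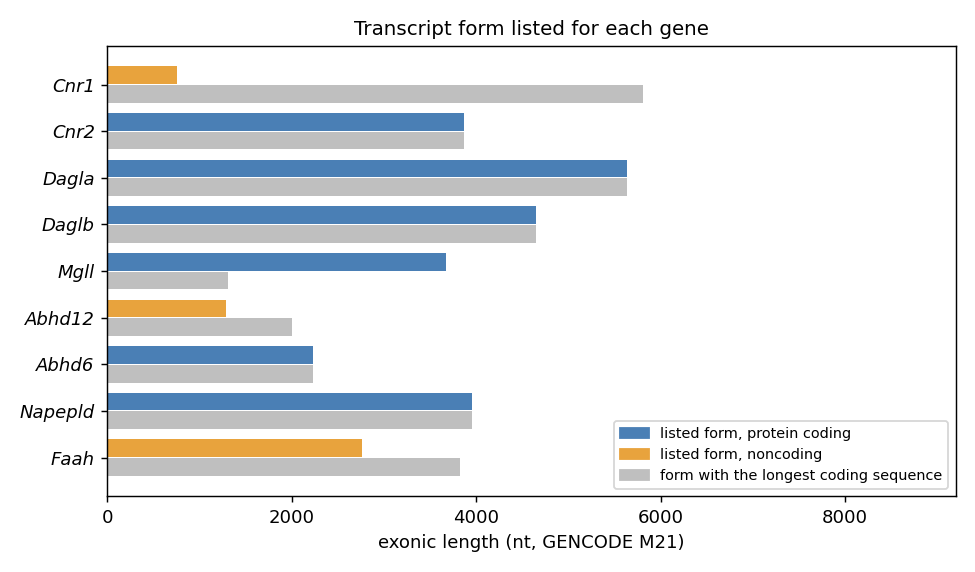
Exonic length in GENCODE M21 of the transcript form each row lists (blue where protein-coding, orange where noncoding) and of the form with the longest coding sequence (grey), for the 9 genes. The listed form of Cnr1 is 757 nt against 5807 nt, and those of Abhd12 and Faah are also shorter than the coding form, whereas Mgll is listed with a form longer than that with its longest coding sequence.

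Across the table, rows of protein-coding genes that list a noncoding form had a higher median than those that list a coding form. Their median was 5.82 FPKM over 892 rows, against 2.25 FPKM over 17162 rows that list a coding form. Where the listed form was under 0.5 of the longest coding form, the median was 6.28 FPKM over 404 noncoding forms and 0.0280 FPKM over 1490 coding forms. Cnr1 is 1 of these 404 rows, and Abhd12 and Faah list longer noncoding forms. The classes hold different genes, so the medians do not settle what the 3 values measure.

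Genes on the route to and from the lipids ranged widely in level. Their counts stand beside 56.4% of protein-coding names at 1 FPKM or more and 30.8% at 10 FPKM or more. All 9 genes of CB1 partners and G proteins reached 10 FPKM, and their median was 39.5 FPKM. The Go alpha subunit gene Gnao1 was highest at 135 FPKM, 9.55 times Cnr1, followed by Gnai2 at 66.8 FPKM, and Gnai3 was lowest at 10.3 FPKM. Cnrip1, which encodes a protein binding the tail of CB1, was at 39.5 FPKM, so that Cnr1 was at 0.358 times Cnrip1.

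Of 10 genes of the Gq-coupled route, by which receptors and phospholipase C beta yield diacylglycerol for 2-AG synthesis, 9 reached 1 FPKM, and the median was 23.2 FPKM. The muscarinic receptor gene Chrm1 was highest at 54.9 FPKM, followed by the G protein gene Gna11 at 42.4 FPKM, and Plcb2 was lowest at 0.605 FPKM. Of 10 diacylglycerol kinase genes, whose enzymes turn the same substrate into phosphatidic acid, 9 reached 1 FPKM, and the median was 14.4 FPKM. Dgkz was highest at 117 FPKM, 2.97 times Dagla, followed by Dgkg at 52.0 FPKM, and Dgkk was at 0.0166 FPKM.

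Besides Napepld, 7 genes have been linked to N-acylethanolamine synthesis, and 4 of them were at 1 FPKM or more, a share near the 56.4% of protein-coding names. The glycerophosphodiesterase gene Gde1 was at 110 FPKM, 5.45 times Napepld, Abhd4 was at 27.0 FPKM and the phosphatase gene Ptpn22 was listed at 0. Of 4 other degrading enzymes, Naaa, a lysosomal amidase, was at 26.7 FPKM, and the ratio of Faah to Naaa was 2.16. The cyclooxygenase gene Ptgs2, whose enzyme can oxidise 2-AG and anandamide, was at 5.45 FPKM, and the ratio of Mgll to Ptgs2 was 12.4. The lipoxygenase gene Alox15 was at 0.00695 FPKM.

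Of 7 other receptor genes of these lipids, only Ppard reached 1 FPKM, at 4.86 FPKM, and 3 were listed at 0, among them Gpr18. Of 20135 protein-coding names, 4862 were listed at 0, among them the broadly used gene Api5 (named after its value was seen). Whether a 0 in this table is a low level or a missing estimate was not tested. Ppara, the nuclear receptor for several N-acylethanolamines, was at 0.851 FPKM. Gpr55 was at 0.328 FPKM, and the ratio of Cnr1 to Gpr55 was 43.2. All 4 intracellular lipid carrier genes were at 1 FPKM or more, from Fabp3 at 6.91 FPKM to Scp2 at 32.6 FPKM and Fabp5 at 45.2 FPKM. Among 13 further genes of the ABHD hydrolase family, 12 reached 1 FPKM, against 56.4% of protein-coding names, and the median was 12.4 FPKM. Abhd8 was highest at 86.6 FPKM, followed by Abhd16a at 33.2 FPKM, and Abhd15 was lowest at 0.752 FPKM. Abhd12 exceeded Abhd8 by 1.78-fold. Among the list genes named here, the rows of Dgkz, Ptpn22, Ppara and Abhd16a also list forms that GENCODE M21 does not class as protein-coding. The forms listed for Cck, Gnai2, Calb2 and Drd2 are not in GENCODE M21. Gad1 and Gnao1 are listed with coding forms of 398 and 741 nt. Ratios of Cnr1 to Cck and of Gnao1 to Cnr1 thus carry a limit from the listed forms of both genes.

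**Figure D4:**
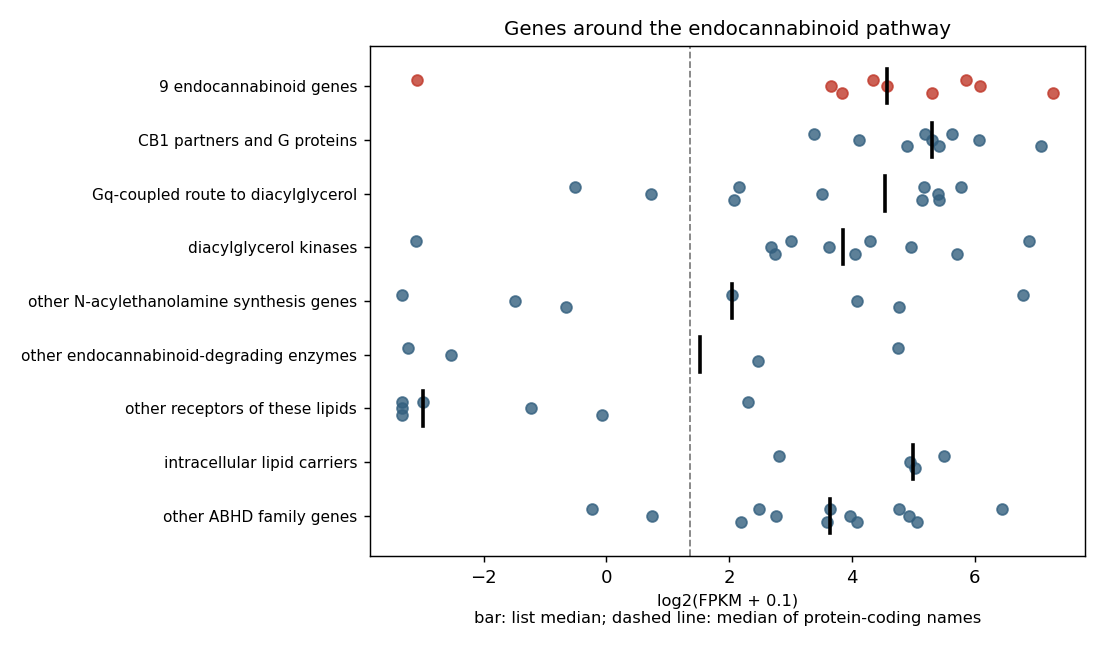
Each point is 1 gene on the log2(FPKM + 0.1) scale, for the 9 endocannabinoid genes (red) and 8 lists around the pathway (blue). Bars are list medians and the dashed line is the median of protein-coding names. Medians run from 0.0266 FPKM for the other receptors to 39.5 FPKM for the CB1 partners and G proteins.

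Upstream windows were found for 7 of the 9 genes, and for 12890 protein-coding names in all. Cnr1 had 36 CpG dinucleotides in its 250 bases, more than 96.7% of those names, and Cnr2 had 3, more than 19.9%. Mgll had 23, Napepld 21 and Abhd6 18. Daglb and Faah had 9 each, below the median of 11 over all names. The observed over expected CpG ratio was 0.928 for Cnr1, 0.180 for Cnr2 and 0.586 for the median name. These counts depend on which start is taken: the windows of the 3 starts of Cnr1 held 5 to 36 CpG dinucleotides, those of the 2 starts of Mgll held 23 and 40, those of Abhd6 held 18 and 22, and both windows of Cnr2 held 3.

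Levels differed between windows with few and with many CpG dinucleotides. With 0 to 4 in the window, 17.1% of 3856 names were at 1 FPKM or more, and the median name was listed at 0. With 5 to 9, the share was 54.1% of 2005 names, with 10 to 19 it was 78.7% of 3832 names, and with 20 or more it was 85.1% of 3197 names, whose median was 10.4 FPKM. Cnr2, with 3 in its window, was under 1 FPKM like most names of the first class. Faah, at 57.7 FPKM, was far above the median of 1.58 FPKM of the names with 5 to 9. DNA methylation at these windows was not analysed here.

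Short motifs were searched on both strands of the same windows, and a match is a description of letters only. The GC box GGGCGG was in the windows of Cnr1 and Faah and in 46.1% of all windows. The CCAAT box was in that of Abhd6 and in 36.1% of all. The TATA box TATAAA, in 11.2% of all windows, and the cAMP response element TGACGTCA, in 2.13%, were in none of the 7. Occurrences of these motifs were counted once per window, whatever their overlap.

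**Figure D5:**
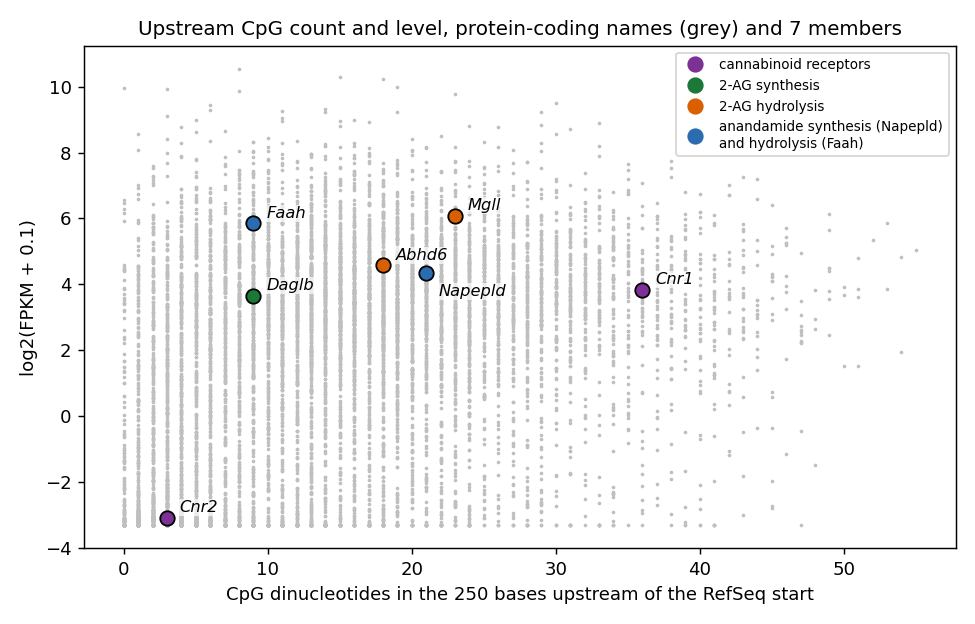
CpG dinucleotides in the 250 bases upstream of the most upstream RefSeq start (horizontal axis) and log2(FPKM + 0.1) (vertical axis) for 12890 protein-coding names (grey) and 7 endocannabinoid genes (coloured by role). Cnr2, with 3 CpG dinucleotides, lies near the floor of the plot, Cnr1, with 36, lies far to the right at a moderate level, and Faah and Daglb share a count of 9 at different levels.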

How the data were processed

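Per the labels' protocols, poly(A) RNA from dentate gyri was fragmented, reverse transcribed from random primers and read on a HiSeq2000. TopHat and Cufflinks with mm9 and NCBIM37 are named, per the submitters' processing notes; their versions and the read length were not given in the sources used here. As deposited by the authors, the table has 1 FPKM column for the series, so the value of a gene is the authors' own for the WT group, with no SD or n. No source used here says whether libraries were pooled or averaged, and values per library were not analysed here. The table has 37681 rows, and 1212 of them, being empty, were dropped. Rows sharing a symbol were summed, which touched none of the 9 genes. Starts were turned into 1-based positions.

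Gene and transcript types and lengths came from GENCODE M21 by identifier, and its GRCm38 coordinates served for exon overlaps. RefSeq starts were kept where they lay on the chromosome of the listed transcript in that release. Sequences are from RefSeq (GRCm38.p6), the most upstream start of each gene. A percentile is the percent of names with a lower value. Log2 values use a pseudocount of 0.1 FPKM.

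The 9 genes, the lists and the 17 gene pairs were chosen with earlier results of these data known. Named were the 9 genes, both genes of each pair, the 2 highest and the lowest gene of each other list and overlapping rows. Granule cell, astrocyte and oligodendrocyte genes were the exception and were given as ranges. The remaining names (neighbouring genes and further markers or list genes) were chosen after their values were seen. Genes most like a member in pattern could not be determined without values per library. The planned exact sign-flip tests on within-library ratios were not run for the same reason. Alternatives changed the pseudocount, the handling of shared symbols, the list summary, the minimum level and the set behind percentiles. Computation used Python 3.11.15, numpy 2.4.6, pandas 2.3.3 and matplotlib 3.10.9.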

Additional observations from a re-analysis of the deposited data

How the results depend on the processing

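Keeping the highest row of shared symbols changed no level and no ratio. For the 9 genes it could change nothing, since each has a row of its own. At 0.5, 1 and 10 FPKM, 8 of the 9 genes passed. No pair changed direction under any pseudocount, which was fixed in advance because the same amount is added to both genes. With pseudocounts of 1 and 0.01 FPKM, the log2 difference of Cnr1 and Cnr2 was 3.90 and 8.99 (6.92 with 0.1). The median over the 17 pairs was 0.93 and 0.97 (0.96 with 0.1). That median depends on which gene of each pair was the numerator, so it says little about the pairs. The median of the 9 genes, 23.8 FPKM, was 31.7 FPKM with values under 0.1 FPKM left out, 18.3 FPKM as a mean of log2 values and 22.0 FPKM without the 3 genes whose listed form is noncoding. That last choice, made after the data were seen, took the ratio of 2-AG hydrolase to lipase sums to 1.76, against 4.73, because it removes Abhd12. The median percentile of the 9 genes, 89.0 among all names, was 77.7 among names at 0.1 FPKM or more and 84.2 among protein-coding names. Leaving out each library in turn was not run, since 1 value per gene is analysed. No paired analysis was possible because the design has 1 group and the result comes from no test. The unknown depth limits the low values most, that of Cnr2 above all.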
